A study of Mus musculus with 2 samples.

Results

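The 10 genes described here encode heterogeneous nuclear ribonucleoproteins (hnRNPs): Hnrnpa1, Hnrnpa2b1, Hnrnpc, Hnrnpd, Hnrnph1, Hnrnpk, Hnrnpl, Hnrnpll, Hnrnpm and Hnrnpu. They were chosen by symbol from the 55536 annotated genes of the deposited tables. All 10 were found, with 138 annotated transcripts. RNA came from the nucleoplasmic fraction of bone marrow-derived macrophages, primary cells of C57BL/6J mice, and was sequenced as total RNA after removal of ribosomal RNA. Both libraries came from cells given Lipid A, the part of bacterial lipopolysaccharide that activates TLR4, at 100 ng/ml for 30 min. Other labels call the fraction nuclear. Replicate 1 started from 1 µg of RNA and replicate 2 from 500 ng. The labels call the 2 libraries biological replicates, with 1 shared donor entry and separate biosamples. An unstimulated sample was not analysed here, so the values are levels after stimulation and nothing can be called induced. Whether the 2 libraries came from separate cultures is said nowhere else in the labels, and differences between them may therefore be technical.

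hnRNPs are RNA-binding proteins that coat newly made transcripts in the nucleus and take part in splicing, 3' end formation, nuclear retention and export. Each prefers a short sequence, and many repress or promote the use of nearby splice sites. Several are known to bind their own pre-mRNA and to keep their own level in check through unproductive splicing, in which an intron is retained or an exon with a premature stop codon is included. Transcripts of that kind are sorted in the GENCODE annotation as retained intron, which have no annotated reading frame, or as nonsense-mediated decay (NMD), whose stop codon lies upstream of an exon junction and which the cell is expected to degrade during translation. The class processed transcript holds other spliced RNAs without a reading frame.

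The libraries held 15846212 and 14874879 expected counts on annotated genes in replicates 1 and 2. Mitochondrially encoded genes took 2.18% and 6.14% of these. All 8 macrophage markers were detected, between 19.9 and 1880 TPM (a level corrected for transcript length and library size), and summed to 2611 and 3362 TPM. The markers of B cells, T cells, fibroblasts, erythroid cells and mast cells or basophils, 17 genes in all, summed to at most 0.36 TPM per list and library. The 4 neutrophil markers summed to 3.67 and 6.05 TPM, with Ly6g at 0 in both. The 3 nuclear RNAs Malat1, Neat1 and Kcnq1ot1 summed to 29105 and 20610 TPM, and the 3 mRNAs Actb, Gapdh and Eef1a1 to 1229 and 1709 TPM.

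All 10 hnRNP genes were well expressed. Each was above 1 TPM in both libraries, and the lowest value was 26.4 TPM. The median of their mean levels was 109 TPM, with a median of 136 TPM in replicate 1 and 88.5 TPM in replicate 2. The 9783 protein-coding genes at a mean of at least 1 TPM had a median of 8.0 TPM. Hnrnpa2b1 was the highest, and 48 protein-coding genes had a higher mean level.

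**Figure D1:**
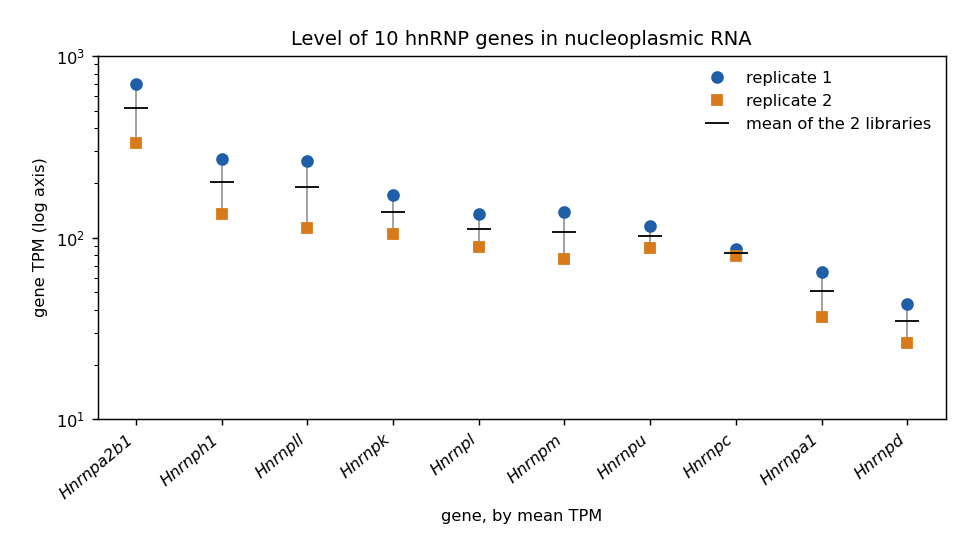
Gene-level TPM (log axis) of the 10 hnRNP genes in nucleoplasmic RNA, 1 point for each library, with a line at the mean. Replicate 2 lies below replicate 1 for every gene on this scale, by the smallest ratio for Hnrnpc (86.1 and 78.8 TPM) and by the largest for Hnrnpll (265 and 113 TPM).

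The A/B-type proteins hnRNP A1 and hnRNP A2/B1 are close relatives that bind UAGG-like motifs and often repress exon inclusion. Hnrnpa2b1 (ENSMUSG00000004980.16, mm10 chromosome 6, 51460932 to 51469894, minus strand) stood at 702 TPM in replicate 1 and 332 TPM in replicate 2, from 15866 and 8976 expected counts. Hnrnpa1 (ENSMUSG00000046434.16, chromosome 15, 103240432 to 103246692, plus strand) stood at 64.8 and 36.7 TPM, from 1745 and 1281 counts. The ranges of these 2 relatives did not overlap, and their means were 517 ± 261 and 50.7 ± 19.9 TPM (SD, n = 2). Hnrnpa1 has 9 pseudogene copies that match a coding transcript over at least 200 bases at 95% identity or more. These copies together held 31 and 60 counts.

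Hnrnph1 (ENSMUSG00000007850.16, chromosome 11, 50376990 to 50386528), whose product binds runs of G, stood at 271 and 134 TPM from 7600 and 4430 counts. Hnrnpm (ENSMUSG00000059208.15, chromosome 17, 33646233 to 33686860, minus strand) encodes a protein that prefers GU-rich RNA and stood at 138 and 76.1 TPM. It shares 1169 exon bases with March2 on the same strand, which had 401 and 347 counts beside 3108 and 2053 for Hnrnpm, so the split between the 2 genes is uncertain.

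hnRNP L and its relative hnRNP LL bind CA-rich RNA, and hnRNP LL is known for exon skipping in the Cd45 (Ptprc) transcript of lymphocytes. Hnrnpll (ENSMUSG00000024095.15, chromosome 17, 80029487 to 80062334, minus strand) stood at 265 and 113 TPM from 13805 and 7207 counts, which made it the second highest of the 10 by counts. Hnrnpl (ENSMUSG00000015165.16, chromosome 7, 28808541 to 28822266) stood at 134 and 88.8 TPM from 2472 and 2213 counts. The ranges of the 2 genes overlapped. A processed pseudogene, AC122253.3, lies within Hnrnpll on the opposite strand, shares no exon base with it and held 263 and 213 counts.

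hnRNP C binds uridine tracts and stays in the nucleus, and hnRNP U, also called scaffold attachment factor A, ties RNA to chromatin. Hnrnpu (ENSMUSG00000039630.10, chromosome 1, 178321108 to 178337797, minus strand) stood at 116 and 88.1 TPM from 6490 and 5982 counts. Hnrnpc (ENSMUSG00000060373.15, chromosome 14, 52073377 to 52104028, minus strand) stood at 86.1 and 78.8 TPM from 2503 and 2526 counts, the closest pair of values among the 10. Exons of Hnrnpu share 804 bases with a gene on the opposite strand that held 18 and 54 counts.

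hnRNP K binds C-rich RNA through KH domains, and hnRNP D, also called AUF1, binds AU-rich elements such as those of cytokine mRNAs. Hnrnpk (ENSMUSG00000021546.18, chromosome 13, 58391142 to 58403343, minus strand) stood at 171 and 105 TPM from 3726 and 2493 counts. Rmi1, on the opposite strand, shares 330 exon bases with it and held 426 and 417 counts, and the processed pseudogene Gm7964, which matches Hnrnpk at 99.2% over 1378 bases, held 115 and 125. Hnrnpd (ENSMUSG00000000568.15, chromosome 5, 99955935 to 99978938, minus strand) was the lowest of the 10 at 43.1 and 26.4 TPM, from 754 and 702 counts.

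By mean TPM the order ran Hnrnpa2b1, Hnrnph1, Hnrnpll, Hnrnpk, Hnrnpl, Hnrnpm, Hnrnpu, Hnrnpc, Hnrnpa1 and Hnrnpd. Among neighbours in that order, the values of the 2 libraries did not overlap for Hnrnpa2b1 above Hnrnph1, for Hnrnpu above Hnrnpc and for Hnrnpc above Hnrnpa1. For the other neighbours these values overlapped. Within each library, Hnrnph1 was above Hnrnpll, Hnrnpll above Hnrnpk, Hnrnpk above Hnrnpl and Hnrnpa1 above Hnrnpd. Hnrnpm was above both Hnrnpl and Hnrnpu in replicate 1 and below both in replicate 2. In the second transcript tables, made from the reads without the transcriptome alignment, the first 4 genes kept their places, Hnrnpu moved from place 7 to 5, and Hnrnpa1 fell to place 10.

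Levels in those second tables were lower for every one of the 10 genes. Their estimated counts there were above the expected counts of the first tables in both libraries. How many of all genes had lower levels was not counted, so this is not shown to be particular to the 10. Hnrnpa2b1 stood there at 302 and 153 TPM, Hnrnpll at 133 and 56.9 TPM, and Hnrnpk at 115 and 64.3 TPM. In proportion, Hnrnpa1 differed the most from the first tables, at 20.3 and 16.0 TPM, from 1798 and 1989 estimated counts. The 10 genes had 1060 to 18294 estimated counts in replicate 1 and 1127 to 14050 in replicate 2.

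Transcript models of the L and LL genes show how the annotated classes differ. In both genes, the NMD transcript adds an exon to the same kind of intron, between a coding exon of 73 bases and one of 72 bases. The added exon of Hnrnpl-213 is 70 bases long (chr7:28817335-28817404, plus strand) and that of Hnrnpll-203 is 83 bases long (chr17:80044940-80045022, minus strand). Neither length is a multiple of 3, and each exon holds the transcript's annotated stop codon, which is TGA in both. The last 30 bases of the coding exon before it are printed in lower case, followed in capitals by the added exon up to and including the stop codon, 59 bases in Hnrnpl-213 (chr7:28817335-28817393) and 47 bases in Hnrnpll-203 (chr17:80044976-80045022). They are shown because this exon is what turns the transcript into an NMD one.
Hnrnpl-213: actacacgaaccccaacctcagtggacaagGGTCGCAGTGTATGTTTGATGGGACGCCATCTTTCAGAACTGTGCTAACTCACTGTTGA
Hnrnpll-203: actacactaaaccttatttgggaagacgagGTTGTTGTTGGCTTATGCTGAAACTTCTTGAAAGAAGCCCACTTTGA

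These NMD transcripts were measured in both libraries. Hnrnpl-213 held 10.6% and 11.4% of the gene's TPM, from 393 and 347 counts. Hnrnpll-203 held 14.5% and 9.92%, from 1644 and 596 counts. The stop codons lie 842 and 807 bases before the last exon junction of Hnrnpl-213 and Hnrnpll-203, respectively. The annotated retained-intron transcript Hnrnpl-207, at 8.19% and 7.75%, also contains the 70-base exon.

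The transcript with the highest mean share in each of the 2 genes runs into that same intron. Hnrnpl-206 continues 1608 bases past the 5' splice site of the 3108-base intron, and Hnrnpll-207 continues 3559 bases into the 4042-base intron. The windows printed here hold the last 15 bases of the coding exon and the first 25 bases of the intron (chr7:28815338-28815377, plus strand, and chr17:80048583-80048622, minus strand), with the first 6 intron bases in capitals, the place where splicing would cut.
Hnrnpl-206: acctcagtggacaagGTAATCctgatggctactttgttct
Hnrnpll-207: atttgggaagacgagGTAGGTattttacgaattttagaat

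**Figure D2:**
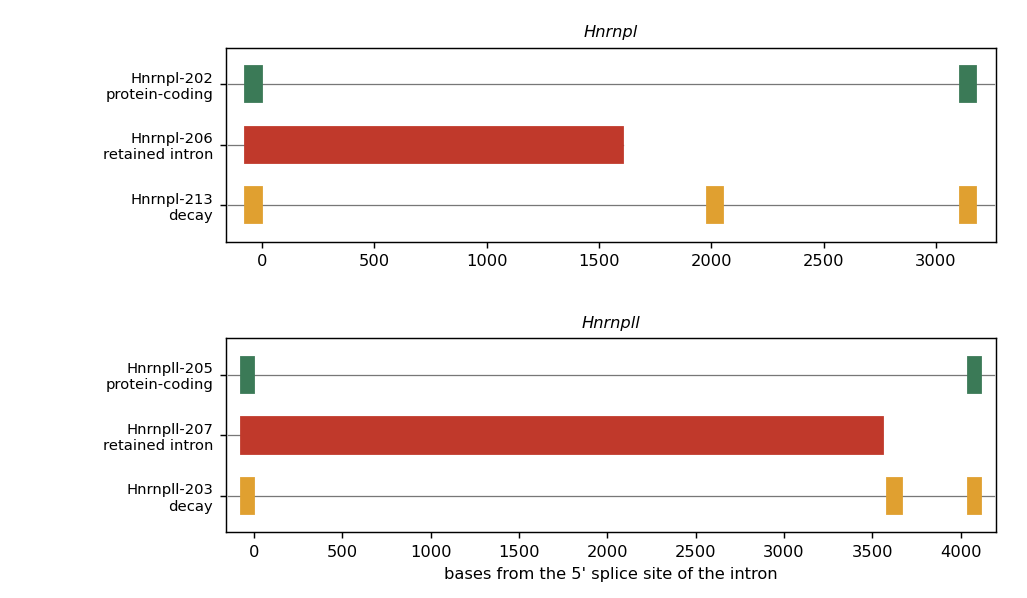
Exons of a protein-coding, a retained-intron and an NMD ("decay") transcript of Hnrnpl and Hnrnpll around the shared type of intron, against the distance in bases from its 5' splice site. The retained-intron model covers 1608 of 3108 bases in Hnrnpl and 3559 of 4042 bases in Hnrnpll, and the added exon of the NMD model (70 and 83 bases) lies beyond its end.

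Hnrnpll-207 held 30.6% and 32.6% of the gene's TPM, from 6136 and 3429 counts. Hnrnpl-206 held 15.7% and 20.2%, from 739 and 775 counts. All 4 retained-intron transcripts of Hnrnpll together held 80.2% and 86.2%, the highest retained-intron share of the 10 genes, while its 2 protein-coding transcripts held 5.39% and 3.87%. In Hnrnpl, retained-intron transcripts held 52.3% and 66.4% and protein-coding ones 37.2% and 22.2%. Both genes thus had most of their RNA outside the coding class in each library, and the second transcript tables gave 79.6% and 84.4% retained intron for Hnrnpll and 54.9% and 63.3% for Hnrnpl.

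The other retained-intron transcripts of Hnrnpll lie elsewhere in the gene or end at other points. Hnrnpll-204 held 23.1% and 21.4% of the TPM and runs 1443 bases into an intron. Hnrnpll-206, at 14.0% and 13.2%, runs 2288 bases into one, and Hnrnpll-202, at 12.5% and 19.0%, keeps a whole intron of 1083 bases. The share was thus spread over all 4 models in both libraries. In Hnrnpl, the short transcripts Hnrnpl-208 and Hnrnpl-205 held 12.6% and 18.7%, and 12.8% and 16.8%, from at most 175 counts each.

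Over the 10 genes as a whole, transcripts annotated as protein-coding held the minority of the RNA. The 63 protein-coding transcripts held 34.1% of the genes' summed TPM in replicate 1 and 29.0% in replicate 2, against 43.0% and 46.6% for the 39 retained-intron transcripts. The 16 NMD transcripts held 9.25% and 9.57%, and the 20 processed transcripts held 13.6% and 14.8%. By expected counts, which weight long transcripts more, protein-coding and retained-intron transcripts were close, at 38.2% and 37.2% against 39.4% in both libraries. Of the 138 transcripts, 27 had 0 expected counts in both libraries, 18 of them protein-coding. These zeros are those of the first tables: Hnrnpc-202, among the 18, held 626 and 728 estimated counts in the second transcript tables.

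**Figure D3:**
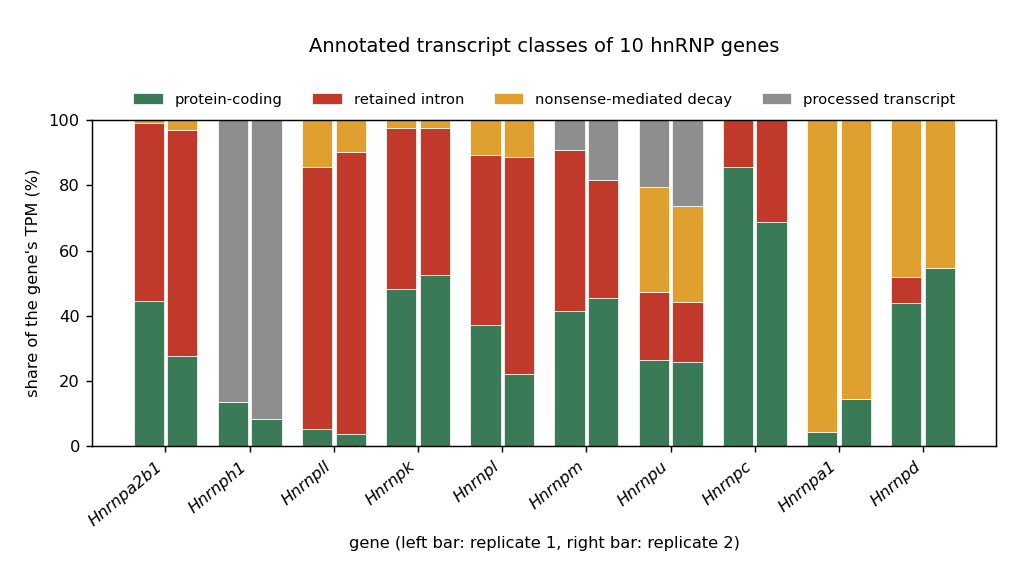
Share of each gene's TPM (%) in the 4 annotated transcript classes, with the left bar for replicate 1 and the right bar for replicate 2. The protein-coding share runs from 5.39% and 3.87% in Hnrnpll to 85.5% and 68.6% in Hnrnpc, and each gene has its own mix of the other 3 classes.

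The protein-coding share was under 50% in 8 of the 10 genes by the mean of the libraries, where 25.6% of 5492 protein-coding genes at a mean of at least 5 TPM and with a transcript of another class were under it. All 10 lay above 20 TPM, and of the 2223 such genes at a mean of at least 20 TPM 31.7% were under it. The count was 9 in replicate 1 and 7 in replicate 2, because Hnrnpd (43.8% and 54.6%) and Hnrnpk (48.3% and 52.3%) lay on either side. By expected counts it was 5 in each library, Hnrnpa1, Hnrnpa2b1, Hnrnph1, Hnrnpl and Hnrnpll, where 15.5% of the 5492 genes were under it. In the second transcript tables it was 7, against 41.2% of the 5492 genes. The median share of the 10 was 32.9%, and that of 6250 protein-coding genes was 71.4% (quartiles 52.2% and 90.9%). Unlike the 5492 genes, these 6250 include genes without a transcript of another class, which stand at 100% by annotation. All of the 10 have another class, so the 2 medians are not of like sets. Hnrnpc alone lay above the median of the 6250 genes. The 13 SR and Tra2 genes, the other large family of splicing regulators, had a median of 43.0%, from 12.1% in Srsf3 to 100% in Srsf12, which rests on 1 count in each library. The 19 other hnRNP family genes found had a median of 79.6%, and they include genes at 100% with no annotated retained-intron or NMD transcript.

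**Figure D4:**
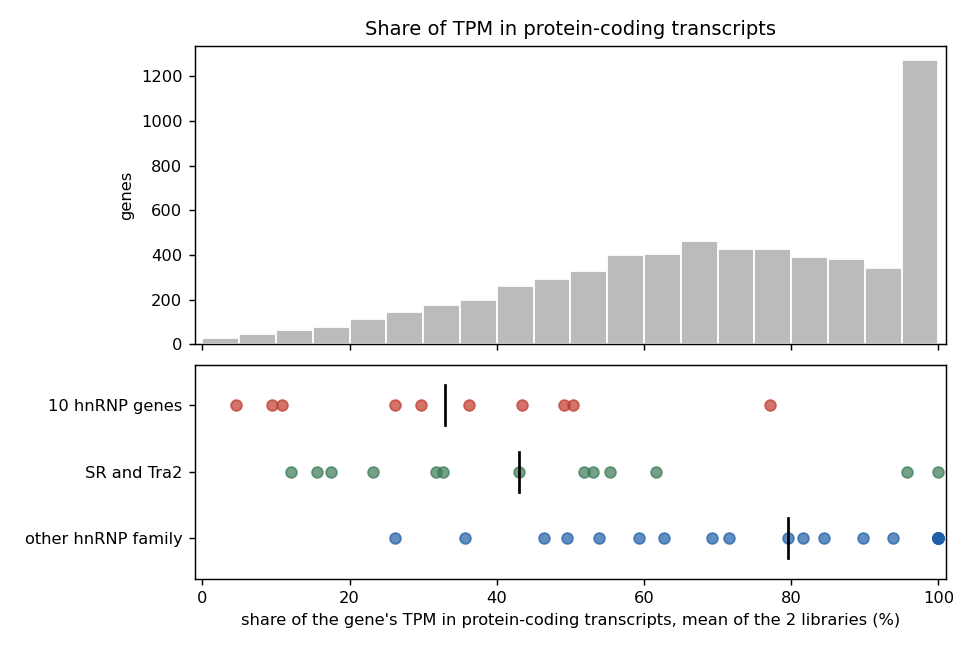
Upper panel, number of protein-coding genes at a mean of at least 5 TPM by the share of their TPM in protein-coding transcripts (%, mean of the 2 libraries). Genes without a transcript of another class are included. Lower panel, the same share of each gene of 3 families, with a line at the family's median: 32.9% for the 10 hnRNP genes, 43.0% for the SR and Tra2 genes and 79.6% for the other hnRNP family genes.

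Retained-intron transcripts are annotated for 8 of the 10 genes, and their median share was 45.0% over those 8. The 4397 protein-coding genes at a mean of at least 5 TPM with such a transcript had a median of 26.8%. Of the 8 genes, 5 lay above it. At a mean of at least 20 TPM, which all 8 exceed, 1848 such genes had a median of 29.9%. The SR and Tra2 genes had 43.0%, from 16.7% in Srsf4 to 83.4% in Srsf11, and the other hnRNP family genes had 20.3%. By expected counts the medians fell to 25.6% for the 8 genes, 14.2% for the 4397 genes and 9.01% for the other hnRNP family genes. That of the SR and Tra2 genes rose to 50.9%, above that of the 8 genes. Of the 39 retained-intron transcripts, 12 hold a whole intron of a protein-coding transcript, and 35 run at least 50 bases into intron sequence. The files do not tell unspliced precursor RNA from spliced RNA that keeps 1 intron: these cannot be told apart in a nuclear fraction measured by counts per transcript model.

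In Hnrnpa2b1, the gene with the highest level, retained-intron transcripts held 54.4% and 69.2% of its TPM, and protein-coding ones 44.6% and 27.8%. The leading transcript was Hnrnpa2b1-208, which keeps an intron of 156 bases, at 23.1% and 23.5%. Hnrnpa2b1-213, with 8.67% and 10.5%, led by counts, at 3559 and 2509, and keeps 4 whole introns, the shortest of 80 bases. That intron is printed with 15 coding bases on each side (chr6:51466208-51466317, minus strand) and with its first and last 2 bases in capitals, since it shows a complete splice-site pair left in the RNA.
Hnrnpa2b1-213: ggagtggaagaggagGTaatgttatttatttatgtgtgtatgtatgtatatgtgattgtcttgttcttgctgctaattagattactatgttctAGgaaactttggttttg

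The libraries disagreed on 1 coding transcript of this gene. Hnrnpa2b1-202 held 2630 counts and 15.3% of the TPM in replicate 1 and was listed at 0 in replicate 2, where the deposited interval for it reached up to 7.42 TPM on the authors' posterior scale. In the second transcript tables it held 2956 and 28.1 counts. By expected counts, the other protein-coding transcripts of Hnrnpa2b1 were present in both libraries, except Hnrnpa2b1-205 at 0 in both.

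Hnrnph1 has neither a retained-intron nor an NMD transcript in this annotation, and 15 of its 18 transcripts are of the class processed transcript. That class held 86.6% and 91.8% of its TPM, and the protein-coding transcripts 13.4% and 8.24%. The leading transcript, Hnrnph1-212, held 25.9% and 29.0%. Hnrnph1-204 followed with 17.5% and 21.8%, and by counts it led with 3060 and 2318. It keeps 2 whole introns of the coding transcript, the shorter of 939 bases and the longer of 1494 bases, although its class does not say so. The start of the longer one is printed with the last 15 bases of the exon before it (chr11:50379950-50379989, plus strand) and the first 6 intron bases in capitals, as the counterpart of the sites in Hnrnpl and Hnrnpll.
Hnrnph1-204: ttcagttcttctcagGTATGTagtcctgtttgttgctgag

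To count such cases by structure and not by name, transcripts outside the coding class that run at least 50 bases into an intron were summed, a measure added after the data were seen. Intron here means sequence between exons that no protein-coding transcript of the gene has in an exon. Hnrnph1 then had 48.5% and 56.3% of its TPM in intron-reaching transcripts. The median over the 9 genes with any was 42.8%. The 4845 protein-coding genes at a mean of at least 5 TPM with such transcripts had 26.9%, and 6 of the 9 lay above that. The 10 SR and Tra2 genes with such transcripts had a higher median, 49.1%, and the 12 other hnRNP family genes a lower one, 19.2%. Hnrnpa1 has none, and Hnrnpc fell from a retained-intron share of 14.5% and 31.4% to 4.24% and 3.13%. Its leading retained-intron transcript, Hnrnpc-212, covers no intron sequence in this sense. It may still enter an intron of a single coding transcript where another coding transcript has an exon. Hnrnpc-210, a protein-coding transcript, led that gene with 41.3% and 38.9%.

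The 3 windows printed for Hnrnpl-206, Hnrnpll-207 and Hnrnph1-204 all begin their intron with GT. GTAAGT, which matches the preferred start of an intron, was not the start of any of them. Over all protein-coding genes, 12.1% of the 16105 coding 5' splice sites that a retained-intron transcript runs through begin with GTAAGT on the gene's strand and 98.7% begin with GT. Among the 23 such sites of the 10 genes, 5 begin with GTAAGT, and a match describes only the letters of a site.

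Hnrnpk and Hnrnpm had about equal shares of protein-coding and retained-intron RNA. Hnrnpk, with 34 transcripts the most of the 10 genes, had 48.3% and 52.3% protein-coding against 49.2% and 45.3% retained intron. Its leading transcript, the protein-coding Hnrnpk-224, held 19.6% and 16.3%, and the highest retained-intron one, Hnrnpk-204, held 13.2% in each library. Hnrnpm had 41.6% and 45.4% protein-coding against 49.2% and 36.3% retained intron, led by the protein-coding Hnrnpm-201 at 21.1% and 21.6% and the retained-intron Hnrnpm-213 at 22.1% and 14.0%. Among the retained-intron transcripts of Hnrnpk, Hnrnpk-228 keeps 2 whole introns, the shorter of 78 bases, and held 6.16% and 6.33%. Many of the retained-intron transcripts of both genes are short, and by expected counts the protein-coding share was higher, at 77.1% and 77.8% for Hnrnpk and 65.4% and 71.9% for Hnrnpm.

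NMD transcripts are annotated for 7 of the 10 genes and had a median share of 12.2% over these, where 2158 protein-coding genes with such a transcript had 5.22%, and 5 of the 7 lay above it. All 16 NMD transcripts have their stop codon more than 50 bases before the last exon junction. In 7 of them that stop codon is also the stop codon of a protein-coding transcript, so their class rests on an added junction after the normal stop and not on a changed reading frame. The SR and Tra2 genes had a median NMD share of 7.62%, from 0.365% in Srsf5 to 35.5% in Tra2a. The 8 other hnRNP family genes with an NMD transcript had a median of 12.5%, close to that of the 7.

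Hnrnpa1 and Hnrnpd had the highest NMD shares, and in both the leading transcript is one with an added junction after the normal stop. In Hnrnpa1, NMD transcripts held 95.6% and 85.5% of the TPM, with Hnrnpa1-203 at 68.4% and 56.4% and Hnrnpa1-204 at 27.2% and 29.1%. Both add exons of 76 and 148 bases past the normal stop codon, at chr15:103246346-103246421 and chr15:103246545-103246692, and the stop lies 90 and 1801 bases before the last junction in Hnrnpa1-203 and Hnrnpa1-204. The protein-coding Hnrnpa1-201 had 0 counts in both libraries, and Hnrnpa1-202 held 4.37% and 12.2%. The second transcript tables gave 84.9% and 74.7% NMD for this gene.

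In Hnrnpd, NMD transcripts held 48.0% and 45.4%, led by Hnrnpd-208 at 32.3% and 44.2%. It adds an exon of 107 bases (chr5:99962098-99962204, minus strand) 1 intron after the normal stop codon. The protein-coding Hnrnpd-203 varied more between the libraries, with 13.3% and 37.6%, from 141 and 303 counts. The only retained-intron transcript, Hnrnpd-206, held 8.21% and 0%, from 12 and 0 counts. In the second transcript tables the protein-coding Hnrnpd-210 led the gene, and the NMD share was 34.3% and 32.8%.

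Hnrnpu had RNA of all 4 classes in both libraries. Its only protein-coding transcript, Hnrnpu-201, held 26.4% and 25.9%, and the NMD transcript Hnrnpu-206 held 32.3% and 28.0%, from 1676 and 1357 counts. Hnrnpu-206 ends in 3 exons that no protein-coding transcript contains, of 51, 94 and 122 bases, and its stop codon is not that of Hnrnpu-201. Retained-intron transcripts held 20.98% and 18.4%, with Hnrnpu-202 at 16.3% and 14.1%. By counts Hnrnpu-201, which is 7640 bases long, held 59.8% and 59.2% of the gene, and in the second transcript tables the protein-coding share was 14.7% and 16.9% of TPM.

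Of the remaining highest transcripts by class, the retained-intron Hnrnpl-206 and Hnrnpll-207 are described with their intron, and the NMD transcripts Hnrnpa2b1-209 and Hnrnpk-203 were low. Hnrnpa2b1-209 held 0.02% and 2.67%, and Hnrnpk-203 held 1.73% and 2.39%. The leading transcript was outside the protein-coding class in 7 of the 10 genes, in 8 by the second transcript tables and in 5 by expected counts. How often this holds over all genes was not counted, so these numbers have no background beside them. The leading transcript was the same in both libraries for 8 genes, all except Hnrnpl and Hnrnpm, and the same in both kinds of table for 5.

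Between the 2 libraries, the hnRNP genes tended to be lower in replicate 2. After scaling of the counts by TMM (trimmed mean of M values), 9 of the 10 were below replicate 1, where 52.4% of the 10448 genes with 50 or more counts on average were. By TPM 10 of them were lower, as were 75.3% of all these genes. In the second transcript tables, 8 of the 10 were lower, against 49.0% of all these genes. None of the 10 was beyond 2-fold, where 9.02% of those genes were. The median log2 ratio of replicate 2 over replicate 1 was -0.45 for the 10 and -0.03 for all genes.

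Hnrnpll had a log2 ratio of -0.87, Hnrnpa2b1 of -0.76 and Hnrnph1 of -0.71, which made the 3 genes with the highest TPM also the 3 with the widest gap. Hnrnpm, Hnrnpk and Hnrnpa1 had -0.53, -0.51 and -0.38. Hnrnpl, Hnrnpu and Hnrnpd were near equal at -0.09, -0.05 and -0.04. Hnrnpc was higher in replicate 2 at 0.08, and its TPM ratio was -0.13.

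TPM in general was lower in the second library: its log2 ratio had a median of -0.44 over those 10448 genes. There Hnrnpll, Hnrnpa2b1 and Hnrnph1 passed 2-fold, at -1.22, -1.08 and -1.01, as did 17.0% of all genes. Relative to the median of all genes these 3 ratios were -0.79, -0.64 and -0.58. A ratio of 2 libraries has no replicate check, and no test was made of it.

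**Figure D5:**
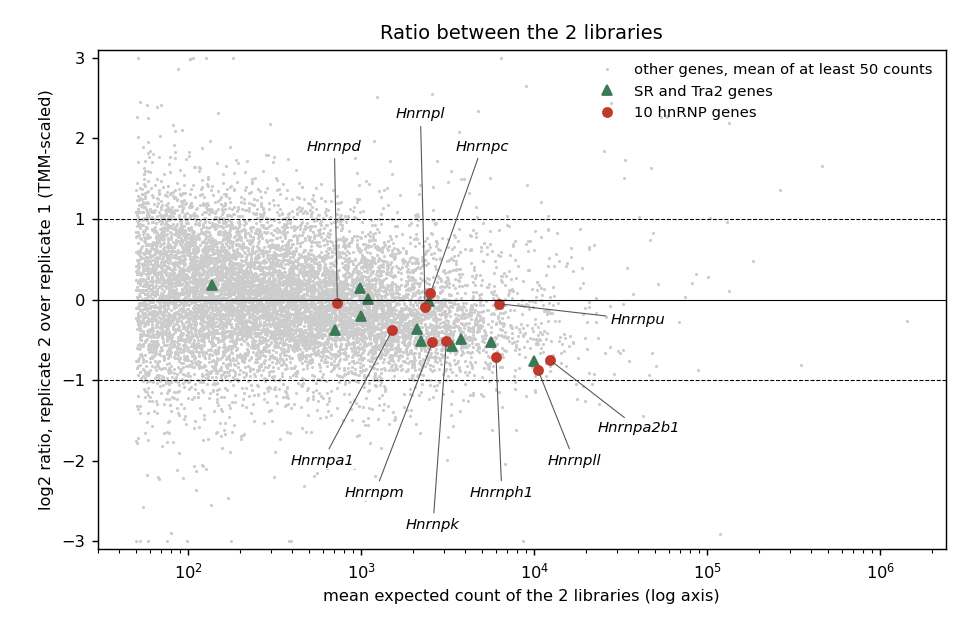
Log2 ratio of replicate 2 over replicate 1 after TMM scaling against the mean expected count (log axis), for 10448 genes, with the 10 hnRNP genes in red, the SR and Tra2 genes in green and dashed lines at 2-fold. The hnRNP genes lie between -0.87 and 0.08, none beyond the lines, and 14 other genes past 3 in size are drawn at 3.

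Other RNA groups moved between the libraries as well. For the 12 SR and Tra2 genes with 50 or more counts on average the median log2 ratio was -0.37, with 9 below 0. The 3 nuclear RNAs had -0.39, all 3 below 0, and the 3 mRNAs Actb, Gapdh and Eef1a1 had 0.87, all 3 above 0. The macrophage markers had 0.31, and the share of mitochondrially encoded counts was higher in replicate 2. The part of these differences in the lower hnRNP values of replicate 2 was not tested.

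The 19 other hnRNP family genes found were all detected, at a median of 29.0 TPM, and none was beyond 2-fold between the libraries. Hnrnpa3, the nearest relative of Hnrnpa1 and Hnrnpa2b1 in this list, was at 177 and 96.4 TPM, the highest by mean level. Ptbp1, which binds pyrimidine tracts, was at 59.8 and 96.4 TPM. Hnrnpr, Rbmx and Hnrnpa0 were the lowest, at means of 9.29, 9.21 and 5.50 TPM. The median log2 ratio of these 19 genes was -0.06, with 11 of 19 below 0.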

How the data were processed

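Total RNA of 2 nucleoplasmic libraries was analysed; for each, a gene table and a pair of transcript tables were deposited, quantified against GENCODE M21 of mm10 per the labels. The sources used here do not name the tools; RSEM and kallisto write such columns. The deposited gene and first transcript tables give expected counts and TPM, per the file headers, and the deposited column IsoPct of the first transcript table holds each transcript's percent of its gene's TPM. They also hold the authors' TPM interval bounds, whose level is not stated; these are on the authors' posterior scale. The deposited second transcript tables give estimated counts and TPM. Whether counting used strand is not given, so genes that overlap on opposite strands are uncertain.

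Features that name no gene, nearly all control DNA, were left out of library sizes and held 1.19% and 0.213% of the expected counts in replicates 1 and 2. Estimated counts of the second tables came to 21932480 and 25815351. With 0 counts, up to 3 remain possible, or 1.89e-05% and 2.02e-05% of the library, which covers counting error only. Rounded expected counts were scaled with the TMM factors of edgeR 4.0.16 under R 4.3.3; DESeq2 1.42.0 size factors were an alternative. Class shares are sums of IsoPct over annotated transcript classes. Transcript models, sequences and overlaps came from GENCODE M21, and copies from BLAST 2.17.0 at 95% identity over at least 200 bases. With 1 group, no test was made and no p-value is given. The ratio script was tested on simulated data.

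All 10 genes are named, with the leading transcript of each and its highest retained-intron and NMD transcripts; other transcripts named were chosen after their values were seen. Of other hnRNP family genes the 3 highest and 3 lowest are named, of SR and Tra2 genes the extremes of each class share, and of overlapping genes and copies those averaging 50 counts or more. An item within these rules is not reported here. The 10 genes and the lists were chosen with earlier results of these data known.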

Additional observations from a re-analysis of the deposited data

How the results depend on the processing

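All 10 genes stayed detected under 8 alternatives. Leaving out either library, a threshold of 0.5 TPM and TPM over protein-coding nuclear genes could not have lowered this number. The second transcript tables, the posterior mean TPM and thresholds of 5 and 10 TPM could have. The median level of the 10 was 62.3 TPM in the second transcript tables and 451 TPM when TPM was taken over protein-coding nuclear genes. The number beyond 2-fold between the libraries was 3 by the ratio of TPM, 3 on the log2(TPM + 1) scale, where 10.8% of all genes were, and 3 at a threshold of 1.5-fold, which 29.7% of all genes passed. Taken over expected counts in place of TPM, the median protein-coding share was 49.3%, the retained-intron share 25.6%, the NMD share 15.8% and the intron-reaching share 29.6%, and 5 genes had most of their RNA outside protein-coding transcripts (the last 2 measures were chosen after seeing the data); the cause is the weight that counts give to long transcripts. Leaving out 1 library gave a median NMD share between 11.4% and 14.5%. The median log2 ratio of the 10 genes was -0.76 by the ratio of TPM, -0.75 on the log2(TPM + 1) scale and -0.25 in the second transcript tables. The ratio of Hnrnpc changed sign by TPM, to -0.13 on both scales, and that of Hnrnpu in the second transcript tables, to 0.07. For single genes, 32 alternatives moved a level or a share by more than 1 SD. Each share is an estimate over annotated transcripts, 2 libraries give only 1 SD per value, and low-count transcripts such as Hnrnpd-206 (12 and 0 counts) are limited by depth. No paired analysis was possible because there is only 1 group.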
